A study of Mus musculus with 4 samples.

Results

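The regions described here are the strongest Fos sites of mouse colonic epithelium that were called as 1 continuous region with 2 to 9 summits. A summit is a local maximum of signal, and its fold enrichment is the number of overlapping DNA fragments there plus 1, over the background of the peak caller plus 1. Rows of the deposited list with the same region coordinates were taken as 1 region, and a region was kept when it held 2 to 9 summits and its highest fold was at least 200. This gave 393 regions, or 1.07% of the 36618 regions with 2 to 9 summits, and they held 1686 of 178981 summits. Of all 108406 regions, 0.417% reached that fold. The members were thus chosen by their measured fold and number of summits, and both are given below as descriptions.

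The list came from CUT&Tag, in which an antibody brings the transposase Tn5 to the protein of interest, where it inserts sequencing adapters. Of the 4 libraries, all of WT mice and with the same batch label, 2 were from colitis recovered animals and 2 from healthy controls. Recovered animals had been given dextran sodium sulfate (DSS), a chemical that damages the lining of the colon, at 1 to 1.5% for 7 days in each of 3 cycles, separated by pauses of 10 days, and tissue was taken 22 days later. In both groups the mucosa was scraped off after EDTA treatment, with no sort for epithelial cells. The list holds no value per library, so recovered and healthy colon were not compared, no value has a replicate error, and the depth of each library is unknown. No control library was used here, and the part of the signal that open chromatin alone gives was not tested.

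Fos pairs with Jun proteins through a leucine zipper to form AP-1, a transcription factor that growth signals, stress and injury induce. AP-1 binds the palindromic letters TGANTCA, and related dimers bind TGACGTCA. It acts at promoters and, to a large extent, at enhancers, which lie between or inside genes and can act over long distances. In the intestine AP-1 is known for its part in epithelial renewal and in the response to damage.

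Sequence could be examined only in windows from 250 bases before to 50 bases after listed gene starts (RefSeq, GRCm38.p6), and the strongest summit of 58 of the 393 regions fell inside such a window of a protein-coding gene. Among windows that held the strongest summit of a region, 8 of 62 (12.9%, 95% Wilson interval 6.69 to 23.4) contained TGANTCA or TGACGTCA, both of which read the same on both strands and do not overlap each other. The share was 438 of 4810 (9.11%, 8.33 to 9.95) for regions with 2 to 9 summits and a lower highest fold, and 1943 of 21045 (9.23%) for all windows. For summits near a window edge only part of the surrounding 50 bp could be searched, and summit positions differed between the strongest and weaker regions. The letters lay within 50 bp of the strongest summit in 3 of the 62 windows (4.84%, 1.66 to 13.3) and in 133 of the 4810 (2.77%, 2.34 to 3.27). These 3 windows are shown 5′ to 3′ because they place the letters and the summit side by side, with TGANTCA in capitals.
Inpp5a, chr7:139388859-139389158, plus strand: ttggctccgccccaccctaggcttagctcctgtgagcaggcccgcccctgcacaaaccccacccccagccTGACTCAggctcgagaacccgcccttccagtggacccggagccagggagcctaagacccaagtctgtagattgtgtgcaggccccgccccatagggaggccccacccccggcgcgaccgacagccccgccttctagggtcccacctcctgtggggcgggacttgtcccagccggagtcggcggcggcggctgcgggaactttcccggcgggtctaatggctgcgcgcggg
Sdcbp2, chr2:151572373-151572672, plus strand: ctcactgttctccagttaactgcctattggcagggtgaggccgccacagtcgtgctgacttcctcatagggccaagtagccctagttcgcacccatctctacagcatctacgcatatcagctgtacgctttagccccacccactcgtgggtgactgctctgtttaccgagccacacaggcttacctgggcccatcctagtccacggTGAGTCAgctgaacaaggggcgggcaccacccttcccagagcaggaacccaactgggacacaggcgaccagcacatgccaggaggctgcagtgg
Fam214b, chr4:43040252-43040551, minus strand: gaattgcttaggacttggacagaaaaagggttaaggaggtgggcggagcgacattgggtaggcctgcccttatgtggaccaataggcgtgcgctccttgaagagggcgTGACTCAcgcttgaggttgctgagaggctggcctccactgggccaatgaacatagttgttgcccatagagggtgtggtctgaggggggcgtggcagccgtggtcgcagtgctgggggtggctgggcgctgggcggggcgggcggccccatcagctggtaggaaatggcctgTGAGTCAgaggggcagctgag
The summit lay 13 bp from the centre of the motif at Inpp5a, an inositol polyphosphate phosphatase gene, and 13 bp from it at Sdcbp2, which encodes syntenin-2. At Fam214b it lay 15 bp from the upstream one of a pair of motifs. The folds of these regions were 286.0, 283.8 and 233.6.

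The next 3 windows carry none of these letters and are shown because their summits sit 100 to 400 bp upstream of the start, as in 63 of 99 strongest regions at gene starts (63.6%, 53.8 to 72.4). Capitals mark the 21 bases centred on the strongest summit.
Rhpn2, chr7:35333987-35334286, plus strand: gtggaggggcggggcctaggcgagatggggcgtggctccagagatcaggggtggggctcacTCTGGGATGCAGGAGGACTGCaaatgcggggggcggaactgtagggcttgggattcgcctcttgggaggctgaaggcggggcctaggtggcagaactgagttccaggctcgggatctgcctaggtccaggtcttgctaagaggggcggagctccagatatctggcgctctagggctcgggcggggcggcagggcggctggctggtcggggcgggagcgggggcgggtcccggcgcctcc
Baiap2l1, chr5:144358063-144358362, minus strand: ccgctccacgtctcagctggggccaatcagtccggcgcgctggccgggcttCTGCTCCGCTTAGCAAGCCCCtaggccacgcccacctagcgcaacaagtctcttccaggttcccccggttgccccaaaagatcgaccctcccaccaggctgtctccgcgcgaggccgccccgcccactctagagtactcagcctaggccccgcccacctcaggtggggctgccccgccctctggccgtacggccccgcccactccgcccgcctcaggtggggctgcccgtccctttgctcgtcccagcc
Cd82, chr2:93462453-93462752, minus strand: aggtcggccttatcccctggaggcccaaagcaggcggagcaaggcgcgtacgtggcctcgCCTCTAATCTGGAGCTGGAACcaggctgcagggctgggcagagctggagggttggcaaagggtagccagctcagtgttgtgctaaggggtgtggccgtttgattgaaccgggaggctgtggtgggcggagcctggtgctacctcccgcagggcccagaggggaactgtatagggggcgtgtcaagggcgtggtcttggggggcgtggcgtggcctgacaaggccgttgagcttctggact
The summits lay 179, 189 and 180 bp upstream of the start of Rhpn2, of Baiap2l1, which encodes an actin-linked adaptor of epithelial microvilli, and of the tetraspanin gene Cd82. Their folds were 380.5, 322.8 and 300.4. The absence of the letters holds for these windows only and says nothing about sequence beyond them.

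Windows of gene starts that a region overlapped were rich in G and C. Over 157 such windows the median GC content was 65.3% (interquartile range 60.3 to 69.7), against 62.0% (56.0 to 68.3) over 9056 windows overlapped by weaker regions with 2 to 9 summits and 56.7% over all windows. The median number of CpG pairs per window was 23, against 22 and 13 in those same sets. Within these 157 windows TGANTCA was present in 6 (3.82%, 1.76 to 8.09) and TGACGTCA in 4 (2.55%, 0.995 to 6.37). Windows overlapped by weaker regions had them at 4.99% (4.56 to 5.46) and 3.45% (3.09 to 3.84), and all windows at 7.04% and 2.26%. These shares all lie within the intervals of the 157 windows. Windows that no region overlapped held TGANTCA at 9.67% and TGACGTCA at 0.962%, and had a median of 4 CpG pairs. Base composition thus differed between the sets compared, and its part in the motif shares was not tested.

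The folds of the 393 regions ran from 200.1 to 671.6 with a median of 236 (interquartile range 216 to 273). Of these, 237 were below 250, 64 were at least 300 and 9 at least 400. Just inside the threshold lay regions nearest to Cdc42bpb, AW549877 and Ctnnd1, all at 200.1, and just outside it regions nearest to Gpnmb (199.9), Gm19345 (198.9) and Thbs4 (198.4). The regions held a median of 4 summits, with 85 regions of 2 summits, 76 of 3 and 73 of 4, and 7 of 9. They were 1173 to 6228 bp wide.

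**Figure D1:**
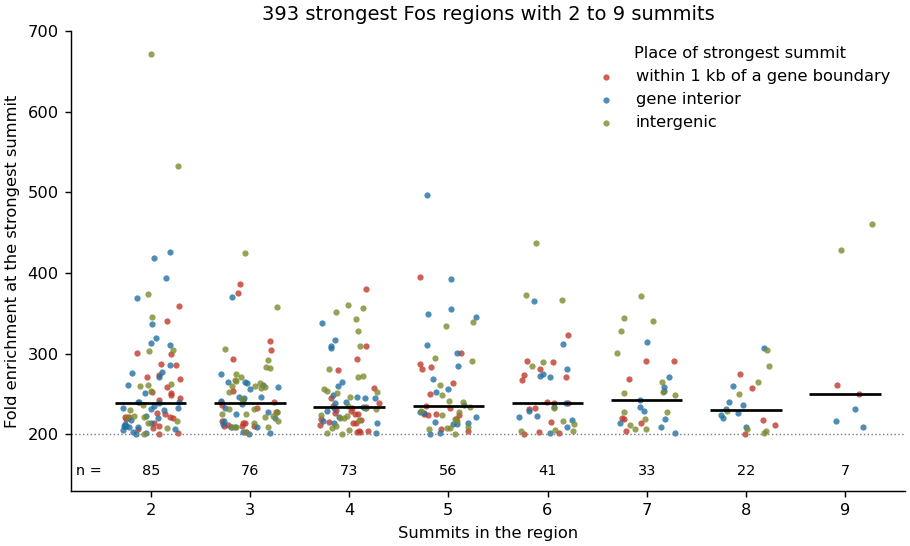
Fold enrichment at the strongest summit of each of the 393 regions (vertical axis, linear, not starting at 0) by the number of summits in the region (horizontal axis), coloured by where that summit lay; black lines are medians and the row of numbers gives the regions per column. The medians differ little between columns, and the 2 folds above 500 belong to regions with 2 summits in intergenic sequence.

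The strongest region, on chromosome 2 at 32470390 to 32472670, had a fold of 671.6 with 2791 overlapping fragments (95% Poisson interval 2688 to 2897, counting error only). It was intergenic, 15698 bp from Naif1, which encodes a nuclear apoptosis-inducing factor, and its other summit, 794 bp away, had a fold of 154.4. The next, on chromosome 16 at 95681743 to 95683486, had 532.3 and lay 19820 bp upstream of Ets2, a transcription factor gene of the ETS family. Its other summit, 469 bp away, reached 224.9, and a separate region of this kind 3451 bp further on reached 220.3. Both leading regions held a pair of strong summits and no others.

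Among interior sites the strongest was 52993 bp inside Ankrd11, a chromatin regulator gene, on chromosome 8 from 122988043 to 122990543, with a fold of 496.9 and 2065 fragments (1977 to 2156). The other 4 summits there had 38.0 or less. Itprid2, which encodes an actin-associated anchor of inositol trisphosphate receptors, held a region with 426.2, and Ngef, a guanine nucleotide exchange factor gene, one with 418.8 whose only other summit had 3.8. Single dominant summits thus stood beside weak ones at Ankrd11 and Ngef, unlike at Ets2.

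The other sites among the first 20 are given by rank, with no theme claimed for them. The fifth region, with 437.5, lay 3478 bp from Dsg2, the desmosomal cadherin of simple epithelia, and its summit of 189.1 stood 290 bp from the strongest. The sixth, with 428.6 and 9 summits, lay 2476 bp upstream of Sqstm1, the autophagy receptor p62, and reached across the start of that gene. Dym, which encodes a Golgi protein, had a region of 9 summits with 461.3 at 13258 bp. Myo7b, the myosin of brush border microvilli, held one of 369.0 at 37617 bp from its boundary, with 5.1 at the other summit. Ttll1 (424.8), Impact (394.5), Rab4a (374.3), Chd2 (373.3), Eif3k (371.1) and Neurl1b (370.2) were the nearest genes of the remaining sites away from boundaries among the first 20, besides Mup5.

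At gene boundaries the strongest were Fbrs with 394.7, Etnk1, the ethanolamine kinase gene, with 386.5, Rhpn2 with 380.5 and Cdca2, which encodes a chromosome-bound phosphatase subunit, with 375.2. At Etnk1 the strongest summit lay 245 bp upstream of the start, and the next had 8.4. At Fbrs it lay 923 bp upstream of the nearest listed start.

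Read placement is uncertain in families of near-identical genes. Mup5, whose region had 392.3, belongs to such a cluster, the major urinary proteins, and Tcp10c, described below, to a family of similar genes. Far from any gene, a region on chromosome 2 from 98666242 to 98667459 with a fold of 357.7 had no protein-coding gene within 1035535 bp, the farthest of all 393, and had 3 summits of which the next had 225.9. No filter for stretches where reads are often misplaced was applied, and the part of misplacement in these folds was not tested.

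**Figure D2:**
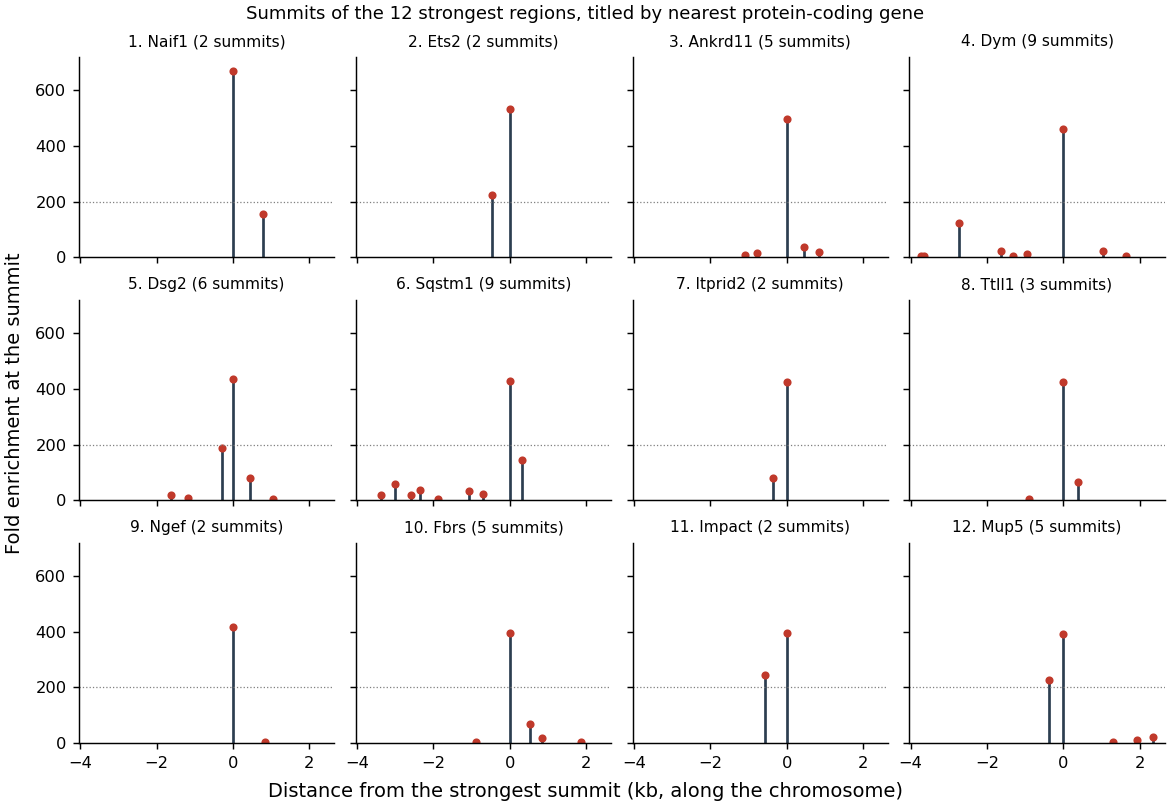
Fold enrichment (vertical axis) of every summit in the 12 strongest regions by distance from the strongest summit in kb (horizontal axis), each panel titled with the region's rank and nearest protein-coding gene; the dotted line marks a fold of 200. Only the panels of Ets2, Impact and Mup5 have another summit above 200.

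A single summit dominated most regions. The second strongest summit had a median of 20.5% of the strongest (95% interval of the median 17.3 to 24.6), and in 79 of 393 regions (20.1%, 16.4 to 24.3) another summit reached at least 50% of it. In weaker regions with 2 to 9 summits the median was 51.6% (51.1 to 52.0), and 18748 of 36225 (51.8%) had such a second summit. Because a high maximum was the condition for entry, this difference is a description. In 15 regions a second summit also reached 200. The most even pair stood inside Tmem220, 176 bp apart, with folds of 312.7 and 309.8, and at Tcp10c 4 summits included 327.8 and 310.5.

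Summits of the strongest regions stood farther apart than those of weaker ones. The median distance between neighbouring summits was 541 bp (interquartile range 399 to 752, 1293 spacings), against 411 bp (311 to 556, 66145 spacings) in the regions with a lower fold. Spacings over 1000 bp made up 9.90% (8.39 to 11.6), against 1.89% (1.79 to 1.99), and those under 200 bp made up 0.928% (0.532 to 1.62), against 2.04% (1.94 to 2.15). The order held at each number of summits from 2 to 9. It was 653 against 384 bp with 2 summits, 557 against 423 bp with 4 and 493 against 452 bp with 9. The change with fold was gradual. Median spacing was 331 bp below a fold of 10, 523 bp at 150 to 200, 547 bp at 200 to 250 and 529 bp from 250 up.

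Spacings beside the strongest summit were wider than the others. Within the 393 regions, the median was 647 bp (95% interval 615 to 679) next to the strongest summit and 466 bp (447 to 484) between the others. In weaker regions those medians were 418 bp (415 to 419) and 397 bp (394 to 400). With 2 summits every spacing is next to the strongest, so regions of few summits weigh on the first value.

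**Figure D3:**
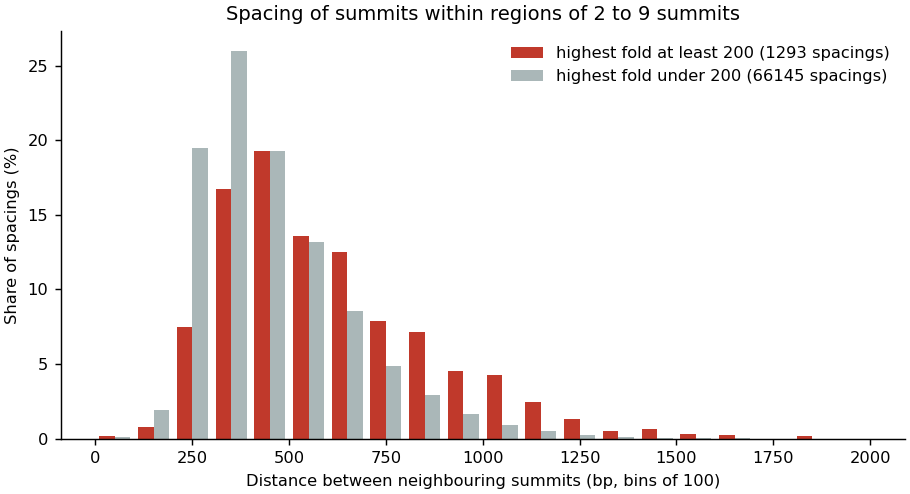
Share of spacings between neighbouring summits (vertical axis, percent) in bins of 100 bp (horizontal axis) for regions with 2 to 9 summits whose highest fold was at least 200 (left bars) or under 200 (right bars). The most frequent bin is 400 to 499 bp for the first set, with 19.3% of spacings, and 300 to 399 bp for the second, with 26.0%.

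The widest single spacings were 1805 bp at Nectin2, a cell adhesion gene, 1800 bp inside Zmiz1, a transcriptional coregulator gene, and 1643 bp near Krt80, a keratin gene. The closest were 66 bp near Dym, 71 bp near Polr2e, a subunit of RNA polymerase II, and 135 bp inside Mast3, a kinase gene. In regions with 3 to 9 summits the strongest stood between others in 218 of 308 (70.8%, 65.5 to 75.6), was the first along the chromosome in 49 and the last in 41. It stood between others in 8468 of 15480 weaker regions (54.7%, 53.9 to 55.5). More summits leave more places between others, and the strongest regions held more (median 4 against 2 over regions with 2 to 9). These shares were not matched for the number of summits, so the 2 sets cannot be compared in this respect.

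Width went with fold as well as with the number of summits. The median width was 2554 bp (95% interval 2417 to 2745), against 1186 bp (1178 to 1194) in weaker regions, and it was larger at each of the 8 numbers of summits, with 1707 against 893 bp at 2 and 5656 against 4528 bp at 9. Weaker regions of the same kind grew step by step, from 749 bp below a fold of 10 to 2374 bp at folds of 150 to 200. The strongest regions thus stood at the upper end of a gradual change.

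The strongest regions were spread almost evenly over the 3 classes of location. The strongest summit lay within 1 kb of a boundary, meaning either end, of a protein-coding gene in 118 of 393 regions (30.0%, 25.7 to 34.7), inside a gene in 143 (36.4%, 31.8 to 41.3) and in intergenic sequence in 132 (33.6%, 29.1 to 38.4). Only the outer ends of each gene counted as boundaries, so summits at listed starts within a gene could be classed as interior. In weaker regions with 2 to 9 summits the boundary share was 23.1% (22.7 to 23.5), the interior share 44.0% (43.5 to 44.5) and the intergenic share 32.9% (32.4 to 33.4). Over all 108406 regions 13.2% were at a boundary. The intervals of the boundary and interior shares did not overlap those of weaker regions, while those of the intergenic share did.

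The boundary share did not rise evenly with fold. Among regions with 2 to 9 summits it was 11.9% (11.3 to 12.5) below a fold of 10, 30.7% at folds of 25 to 50, 35.0% (32.8 to 37.3) at 100 to 150, 31.6% (26.1 to 37.8) at 200 to 250 and 27.6% (21.2 to 35.1) from 250 up. With the number of summits held equal, the boundary share of the strongest regions was higher at 3 of 8 numbers and lower at 5. It was 32.9% (23.9 to 43.5) against 17.5% (17.0 to 18.0) with 2 summits, and 21.2% (10.7 to 37.8) against 34.3% (30.1 to 38.7) with 7. The interior share was lower at all 8, but the gap varied, with 37.5% against 37.7% at 5 summits and 28.8% against 39.9% at 4. By fold it was 33.9% (30.1 to 37.8) at 150 to 200 and 38.8% (32.8 to 45.2) at 200 to 250. From 250 up it was 32.7% (25.8 to 40.4), and these intervals overlap.

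**Figure D4:**
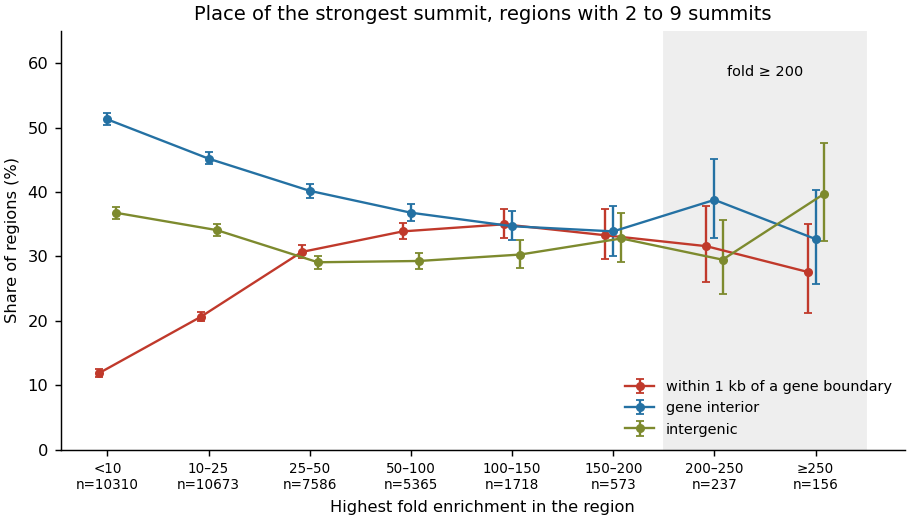
Share of regions with 2 to 9 summits (vertical axis, percent) whose strongest summit lay within 1 kb of a gene boundary, inside a gene or in intergenic sequence, by the highest fold of the region (horizontal axis); bars are 95% Wilson intervals and the shaded bins hold the 393 strongest regions. The interior share falls from 51.3% in the weakest bin to 33.9% at folds of 150 to 200. In the shaded bins it is 38.8% and 32.7%, and the intervals of the 3 classes overlap there.

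For the other strong regions the boundary shares were as follows. Of the 37 single-summit regions with a fold of at least 200, 7 were at a boundary (18.9%, 9.48 to 34.2), and of the 22 regions with 10 or more summits and such a fold, none was, which allows a share of up to 13.6% (3 counts of the total, as for each count of 0 here). The interval of the single-summit regions overlapped that of the 393.

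The strongest summit lay a median of 6970 bp (5086 to 8938) from the nearest gene boundary, against 8792 bp (8558 to 9054) in weaker regions, and these intervals overlap. No protein-coding gene lay within 50 kb of 21 regions (5.34%, 3.52 to 8.03), against 8.81% (8.52 to 9.11) of weaker ones. Inside genes whose strand was listed, 74 of 116 summits (63.8%, 54.7 to 72.0) lay in the 50% nearest the start, against 59.2% (58.3 to 60.1), and 33 (28.4%, 21.0 to 37.2) in the 25% nearest it, against 32.5% (31.7 to 33.3). Both pairs of intervals overlap. Between genes, 54 of 98 (55.1%, 45.2 to 64.6) lay on the start side of the nearest gene, against 55.9% (54.8 to 56.9), so no preference apart from that of weaker regions was detectable.

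At boundaries the strongest regions sat mostly at gene starts, as weaker ones did, but farther upstream of them. Where the strand was listed, the boundary was the start of the gene in 92 of 96 regions (95.8%, 89.8 to 98.4), against 6052 of 6715 (90.1%, 89.4 to 90.8). These intervals overlap. Of the 312 regions whose nearest gene had a listed start, 99 had one of its starts within 1 kb. Here listed starts within the gene counted too. The strongest summit was upstream of the start in 88 (88.9%, 81.2 to 93.7). In weaker regions that share was 3856 of 6813 (56.6%, 55.4 to 57.8). The median position was 224 bp upstream (-224, 95% interval -243 to -185, interquartile range -303 to -114), against 37 bp upstream (-37, -43 to -28, interquartile range -156 to 77).

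This position moved with fold across all regions with 2 to 9 summits. The median summit stood 50 bp downstream of the start in regions with 2 to 9 summits below a fold of 10 (804 regions), at -63 at folds of 50 to 100, at -116 at 100 to 150, at -161 at 150 to 200, at -213 at 200 to 250 (64 regions) and at -232 from 250 up (35 regions). The share upstream was 42.4% (39.0 to 45.9) in the weakest of these bins and 88.6% (74.0 to 95.5) in the strongest. With the number of summits held equal the strongest regions were still farther upstream, at -204 against -15 with 2 summits (26 and 2833 regions) and at -230 against -91 with 6 (13 and 286). Starts on both strands within 1 kb were listed for 9 of 99 (9.09%, 4.86 to 16.4), against 9.63% (8.95 to 10.4) of weaker regions, and these intervals overlap.

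Most of these regions reached across the start, as did weaker ones. In 74 of the 88 regions with an upstream strongest summit (84.1%, 75.0 to 90.3) another summit lay within 1 kb downstream, against 80.2% (78.9 to 81.4). These intervals overlap. The strongest of those downstream summits stood at a median of 555 bp past the start with 5.65% of the fold of the upstream one (interquartile range 2.40 to 16.7), against 377 bp and 28.3% (14.2 to 52.3) in weaker regions. Only regions with an upstream strongest summit were counted, in both sets. Any summit after the start was therefore weaker by the choice of regions. As the fold of the strong summit was also the condition for entry, the ratio is a description.

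**Figure D5:**
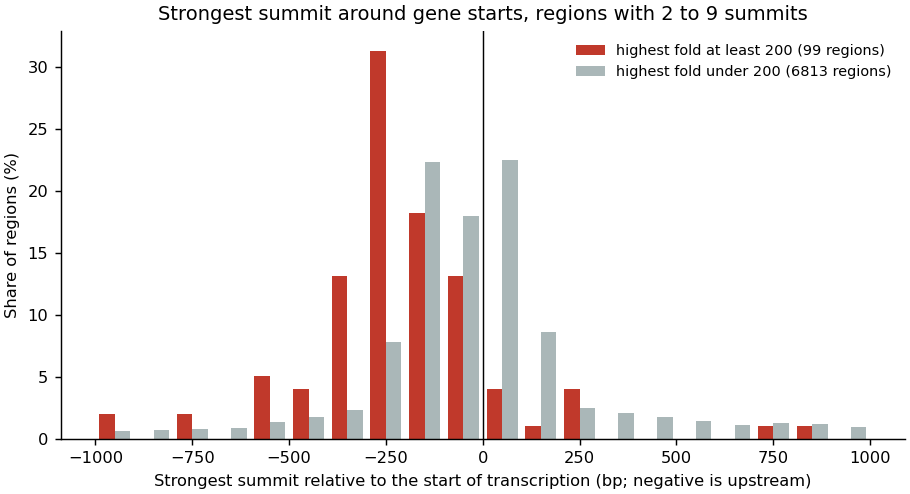
Share of regions (vertical axis, percent) by position of the strongest summit relative to the nearest listed start of the nearest protein-coding gene (horizontal axis, bins of 100 bp, negative is upstream), for the 99 regions with a highest fold of at least 200 (left bars) and the 6813 with a lower one (right bars), all with 2 to 9 summits and within 1 kb of the start. The tallest bar of the first set, 31.3%, spans 300 to 201 bp upstream, and that of the second, 22.5%, the first 100 bp downstream.

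The 393 regions were nearest to 374 protein-coding genes, or 1.73% of the 21631 in the gene table. No gene was nearest to more than 2, and 19 were nearest to 2, among them Ets2, Etnk1, Baiap2l1, Sdcbp2, Cldn3 and Ctnnd1. Assignment rests on distance alone.

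Of 22 epithelial identity genes, 4 were the nearest gene of a region, a share of 18.2% against the 1.73% of all genes. All 22 were also the nearest gene of a weaker region with 2 to 9 summits. Cldn3, a claudin of tight junctions, had 2 regions, one with 9 summits and a fold of 261.0 whose strongest summit lay 253 bp upstream of its start, and another with 216.2 at 18729 bp. Tjp1, the tight junction scaffold ZO-1, held a region of 7 summits with 253.3 in its interior. Hnf4a, a nuclear receptor of intestinal identity, was nearest to one with 224.9 at 7467 bp past the end of the gene. Krt18, a keratin of simple epithelia, was nearest to one with 249.4 at 11846 bp upstream. These lists were compiled with earlier results of these data known, and no list was tested.

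Of the other 15 lists, 4 had such genes. Housekeeping had 2 of 15 (13.3%), with Actb at 344.2 from 13020 bp away and Ywhaz at 206.6 from 96117 bp away. Stem cell and Wnt genes had 1 of 17, Prom1 at 203.7, and immediate-early genes other than AP-1 had 1 of 19, Klf6 at 290.1 from 57617 bp upstream. Injury and fetal-like genes had 1 of 24, S100a6 at 280.5 from 690 bp past the end of the gene. None of the 154 genes of the remaining 11 lists was the nearest gene of a region, which allows a share of up to 1.95%. Those lists were AP-1 and small Maf, mature colonocyte, goblet cell, YAP and TEAD, epithelial inflammation, tuft cell, enteroendocrine, T and B cell, myeloid cell, fibroblast and smooth muscle, and endothelial. A share of 0 in so few genes cannot be told apart from the 1.73% of all genes. In the AP-1 and Maf list 11 of 15 genes, and in the colonocyte list 18 of 18, were nearest to a weaker region with 2 to 9 summits, against 12410 of all 21631 genes. So were 11 of 15 housekeeping, 18 of 19 other immediate-early, 16 of 17 stem cell and Wnt and 19 of 24 injury and fetal-like genes. Lists of other epithelial cells had 13 of 14 (goblet), 6 of 10 (tuft) and 6 of 15 (enteroendocrine). Among the lists of other tissue cells it was 8 of 10 endothelial, 7 of 12 fibroblast and smooth muscle, 5 of 10 myeloid and 2 of 12 T and B cell genes.

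The strongest regions also lay among more other summits than weaker regions did as a whole. The median number of summits outside the region within 50 kb of the strongest one was 27 (95% interval 25 to 29). Weaker regions had a median of 20. The strongest regions had the higher median at each of the 8 numbers of summits. Across regions with 2 to 9 summits the median rose gradually with fold, from 19 below a fold of 10 to 26 at 150 to 200. It was 26 at 200 to 250 and 29 from 250 up. For other regions with a fold of at least 200, it was 23 with a single summit (37 regions) and 39.5 with 10 or more (22 regions). Within the 393 regions the median was 20 at gene boundaries, 28 inside genes and 31 between genes. The busiest site, nearest to Ugt1a10 with a fold of 275.4, had 127. Within 100 kb of each other, 62 of the regions formed 30 groups, 28 of them pairs. The 3 regions around Mettl27 and Cldn3 spanned 50056 bp, and those nearest to Gse1 and Gins2 on chromosome 8 spanned 183123 bp.

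Chromosome X held none of the 393, although 487 regions with 2 to 9 summits lay on it, which allows a share of up to 0.616% of those. The share on the autosomes ran from 0.627% on chromosome 9 to 1.49% on chromosome 1. The sex of the animals was not given in the sources used here.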

How the data were processed

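Fos CUT&Tag was done on scraped colonic mucosa in 4 libraries, 2 colitis recovered and 2 healthy control. The submitters' processing notes name Bowtie2, MACS2 and mm10. Neither versions and commands nor the way libraries were combined are given in the sources used here. At each summit, the deposited list holds the authors' fold enrichment (a ratio), −log10 p-value and −log10 q-value. The authors' score is 10 times the −log10 q without its decimals. Fold, −log10 q and positions were used.

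Folds were whole multiples of 0.2405, the step of (fragments + 1) over (background + 1) with a background of 3.16 fragments, and fragments were read from it. Each region was placed by its strongest summit against 21631 protein-coding genes of RefSeq GRCm38.p6, the assembly mm10 names, on chromosome X and the autosomes, with 1-based positions. Starts with strand were listed for 17274 of those genes, including the nearest gene of 312 of the 393 regions. The others were not used for start positions. Weaker regions are the 36225 with 2 to 9 summits and a fold under 200. Intervals of shares are 95% Wilson, of medians 95% order-statistic and of pileups 95% Poisson. The limit for a count of 0 is 3 counts of the total. They cover counting error only and treat regions as independent.

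The members and gene lists were chosen with earlier results of these data known, so no test was made. Genes named are those nearest to the 20 strongest regions, to those at the threshold, to the 3 strongest of each class and to those with extreme spacings, those nearest to 3 or more regions (there were none), and list members. Others (Tmem220, Tcp10c, Ugt1a10, Swap70, Lrrc4c's region, and genes of printed windows, of groups of regions, nearest to 2 regions or at microRNAs) were chosen after their values were seen. The motif search at every summit was not run, since no genome was used here. Placement recovered 100% of 600 simulated summits and spacing 100% of 300 simulated regions. Python 3.11.15, numpy 2.4.6, pandas 2.3.3 and scipy 1.17.1 were used. Alternatives varied the fold, summit and q-value limits, region width, boundary distance, gene set and start assignment.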

Additional observations from a re-analysis of the deposited data

How the results depend on the processing

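Of 66 alternative values, 53 stayed within the 95% interval of the main value or, for the number of regions, within 1.5 times of it. The number of regions, 393, was 966 with a fold of at least 150 and 156 with at least 250. The boundary share, 30.0%, was 25.4% with boundaries of 500 bp, 35.4% with 2000 bp and 37.7% when any base of the region counted, where the interior share, 36.4%, was 31.3%. The intergenic share, 33.6%, was 39.7% with a fold of at least 250. The median spacing, 541 bp, was 558 bp with 2 to 5 summits and 513 bp among summits of at least 10% of the highest fold. The median width, 2554 bp, was 2768 bp with a fold of at least 250, 2132 bp without regions wider than 3000 bp and 2241 bp with 2 to 5 summits. The last 2 remove wide regions by construction. The share upstream of the start, 88.9%, ran from 83.2% to 91.0% over 7 alternatives, which were chosen after seeing the data, and the median position, -224, was -182 with a fold of at least 150 and otherwise within its interval. The AP-1 motif alternatives at summits were not run. No paired analysis was possible because the list has no values per library. The unknown depth and the lack of a control library limit all folds.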

Other observations

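Strong regions, like weaker ones, also lay at genes that make no protein. The strongest summit was within 1 kb of a boundary of a long noncoding RNA gene in 15 of 132 intergenic regions (11.4%, 7.01 to 17.9), against 8.27% (7.79 to 8.78) of weaker intergenic ones. Among interior regions it was 7 of 143 (4.90%, 2.39 to 9.76), against 3.40% (3.13 to 3.69). Both pairs of intervals overlap. At boundaries of protein-coding genes it was 23 of 118 (19.5%, 13.4 to 27.6), against 918 of 8369 (interval 10.3 to 11.7%), and these intervals do not overlap. The Ets2 site lay 971 bp from Gm31901, the Ngef site 219 bp from Gm46099 and the site near Swap70, with a fold of 366.8, 122 bp from Gm32861. A microRNA gene lay within 1 kb of 5 of the 393 regions, all named here. They were 4 of 118 at boundaries (3.39%, 1.33 to 8.39), against 60 of 8369 weaker ones (0.717%, 0.557 to 0.922), 1 of 143 interior ones, against 36 of 15936, and 0 of 132 intergenic ones, against 26 of 11920. Mir1956 stood 14 bp from the strongest summit at Eif4e, the gene of the cap-binding translation factor, with a fold of 217.7. The others were Mir7240 at Mast3, Mir1938 at Ifrd1, Mir707 at Tbc1d17 and Mir8098 at Wdfy2, at 872, 653, 580 and 280 bp.

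In weaker regions with 3 to 9 summits the strongest was the last along the chromosome in 27.7% (27.0 to 28.4) and the first in 17.6% (17.0 to 18.3), and these intervals do not overlap. In the 393 regions the shares were 13.3% (9.97 to 17.6) and 15.9% (12.2 to 20.4). The cause was not tested.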
